A study of Mus musculus with 6 samples.

Results

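The genes described are 5 members of the vascular endothelial growth factor (VEGF) system, taken by name from the gene symbols of the deposited tables: the ligand genes Vegfa, Vegfb and Pgf (which encodes PlGF, placental growth factor) and the receptor genes Kdr (VEGFR2) and Flt1 (VEGFR1). They made up 5 of 24063 gene symbols and 15 of 33068 transcripts. All 5 had enough counts to be tested. RNA was sequenced from lung ECs that were isolated with anti-CD31 magnetic beads from male C57BL6 mice, either sham-operated or 7 days after unilateral pneumonectomy (PNX), an operation that removes a lung and is followed by growth of the lung that remains. There were 3 sham and 3 PNX libraries, and each was a pool of 2 mice. The mice carried no engineered allele and received no agent, and the sample labels give their age as 8 weeks whereas the methods give an older age.

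VEGF ligands are secreted dimers that act on endothelial receptor tyrosine kinases. VEGFA binds both VEGFR2, which carries most of the signal for endothelial growth, survival and permeability, and VEGFR1, which binds VEGFA tightly but signals weakly and can limit the ligand that reaches VEGFR2. VEGFB and PlGF bind VEGFR1 and not VEGFR2, and the neuropilins NRP1 and NRP2 are co-receptors. In the adult lung, alveolar epithelium, above all the alveolar type 1 cell, is a known source of VEGFA for the capillaries, and RNA of Vegfa in an EC preparation can therefore come from more than 1 cell type.

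The total count of a library ranged from 29526989 to 81282871. By their labels, replicates 1 and 2 of sham and of PNX were re-used from an earlier deposit, and replicate 3 was not. Replicates 1 and 2 of a group differed by little more than counting error (chi-square per degree of freedom 1.75 in sham and 1.57 in PNX, against 67.9 to 86.4 for pairs with replicate 3), so their counts were added up and each group was taken as n = 2 samples, 1 from each deposit. Endothelial markers were abundant in every library, with Pecam1 between 2038 and 2494 CPM (each gene's count scaled to the TMM-adjusted total of its library) and Cdh5 between 1287 and 1515. The libraries also held alveolar epithelial RNA, with Ager, a marker of type 1 cells, between 436 and 3424 CPM and Sftpc, a marker of type 2 cells, between 812 and 2529. In such bulk samples fewer cells of a type and less RNA per cell cannot be told apart.

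All 5 genes lie on the minus strand and overlap no other annotated gene (GENCODE vM21, build GRCm38). Vegfa lies at chr17:46016993-46032369, and the files count it on 9 transcripts. Vegfb lies at chr19:6982473-6987651 and Pgf at chr12:85166635-85177790, with 2 transcripts each in the files. The receptor genes share chromosome 5, with Kdr at chr5:75932827-75978458 and Flt1 at chr5:147561604-147726011, and each was counted on 1 transcript of 30 exons. The Flt1 transcript is that of the full-length receptor. The form that encodes soluble VEGFR1 had no count of its own, so its reads on shared exons were not told apart from those of the full-length form. A read on exons that transcripts share was counted on each of them, so the summed count of Vegfa can hold a read up to 9 times, equally in both groups.

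The 3 classical VEGFA isoforms, VEGF188, VEGF164 and VEGF120, differ by the coding exons 6 and 7, both of which contribute basic residues that hold the ligand on heparan sulfate of the matrix and cell surface. The exons are shown because these bases alone separate the counts of the 3 transcripts. They were read from the GENCODE transcript that matches VEGF188 and are given 5′ to 3′ on the minus strand of GRCm38.
Vegfa exon 6, chr17:46022277-46022348, 72 bases: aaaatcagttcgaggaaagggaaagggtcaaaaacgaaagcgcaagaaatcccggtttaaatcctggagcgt
Vegfa exon 7, chr17:46020991-46021122, 132 bases: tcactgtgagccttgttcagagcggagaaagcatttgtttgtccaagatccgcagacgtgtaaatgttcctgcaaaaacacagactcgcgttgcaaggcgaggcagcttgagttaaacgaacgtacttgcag

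The 2 receptor genes were the members whose levels lay below sham in every PNX library, so the 250 bases before the start of each are shown (RefSeq, GRCm38.p6, minus strand, 5′ to 3′). Capitals mark matches to letters known as the cores of ETS factor sites (AGGAAG or CGGAAG, both strands), hypoxia-inducible factor (HIF) sites (ACGTG or GCGTG, both strands), the cyclic AMP response element (TGACGTCA, both strands) and the TATA box (TATAAA, on the strand shown). These letters were chosen after the values of the genes were seen.
Kdr, chr5:75978456-75978705: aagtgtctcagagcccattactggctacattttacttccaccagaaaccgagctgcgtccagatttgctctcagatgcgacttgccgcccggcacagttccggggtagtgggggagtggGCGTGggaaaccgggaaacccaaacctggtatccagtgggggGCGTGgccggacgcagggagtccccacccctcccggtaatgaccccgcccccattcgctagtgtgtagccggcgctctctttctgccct
Flt1, chr5:147726012-147726261: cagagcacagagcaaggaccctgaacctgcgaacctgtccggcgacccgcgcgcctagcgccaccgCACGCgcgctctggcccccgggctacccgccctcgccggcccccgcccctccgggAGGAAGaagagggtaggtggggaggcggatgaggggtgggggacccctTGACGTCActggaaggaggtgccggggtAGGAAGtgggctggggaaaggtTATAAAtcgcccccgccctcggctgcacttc
The Kdr window held 2 HIF matches, which begin 131 and 89 bases before the start, and no match to the ETS letters, the cyclic AMP element or the TATA box. The Flt1 window held 2 ETS matches 129 and 53 bases before the start, 1 HIF match at 184, the cyclic AMP element at 81 and the TATA box at 31. None of these matches overlapped another. Of all 32851 promoter windows, 39.2% held an ETS match, 38.6% a HIF match, 1.5% the cyclic AMP element and 7.6% the TATA box, so the first 2 are common letters. The windows were rich in G and C, at 61.6% for Kdr and 70.4% for Flt1.

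Among these genes, receptor RNA was abundant and the RNA of the VEGFR1-specific ligands was scarce. On a per-length scale, the deposited TPM (abundance corrected for transcript length) of the longest transcript, Kdr stood at 373, 375 and 343 in the 3 sham replicates and Vegfa at 363, 375 and 242, and the 2 ranges overlapped. Flt1 followed at 158, 160 and 118 TPM, below every value of Kdr and Vegfa. Vegfb stood at 14.0, 14.5 and 14.8 TPM and Pgf at 7.00, 8.02 and 5.23, so that these 2 ligands did not overlap each other or the rest. After PNX the order was the same. Kdr stood at 277, 278 and 291 TPM and Vegfa at 274, 280 and 166, again overlapping, and Flt1 at 108, 107 and 99.4. Vegfb stood at 16.6, 17.0 and 16.6 TPM after PNX and Pgf at 12.7, 13.4 and 7.76. Of the co-receptors, Nrp1 (166 to 273 TPM over the 6 libraries) lay in the range of Vegfa, and Nrp2 (25.1 to 43.0) between Flt1 and Vegfb.

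**Figure D1:**
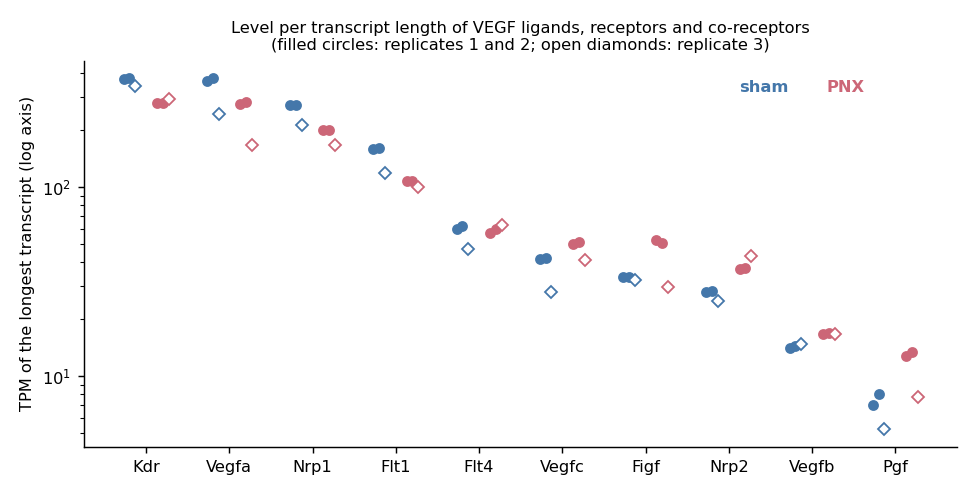
TPM of the longest transcript (log axis) of VEGF ligands, receptors and co-receptors in the 3 sham (blue) and 3 PNX (red) libraries, with filled circles for replicates 1 and 2 and open diamonds for replicate 3. Kdr, Vegfa and Nrp1 are the highest, Flt1 follows, and Vegfb and Pgf stay below 20 TPM; Figf is the gene of VEGFD.

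With 4 samples and no block, none of the 5 members passed the call rule (adjusted p under 0.01, log2 fold change beyond ±1) in edgeR's quasi-likelihood test, nor did any of 16598 genes tested (0% called), of which 2076 had an unadjusted p under 0.05. Of the other tools, limma-voom called 0 genes from these samples and DESeq2 587 (2.96%), none of them a member. Since the labels pair the groups by deposit, a fit with the deposit as replicate block is given beside it. With the replicate block edgeR called 5.12% of genes (3.89% higher and 1.23% lower) and again 0 of 5 members. At an adjusted p under 0.05 with any fold, the block passed 3 of 5 members, Pgf higher and Vegfa and Flt1 lower, against 21.6% of all genes (11.5% higher and 10.1% lower). This fit has 1 residual degree of freedom. In all 5 members the difference between PNX and sham had the same sign in both deposits, as in 75.3% of genes tested, and over 36 fits none changed direction. The median log2 fold change was −0.33 over the members and −0.01 over all genes.

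**Figure D2:**
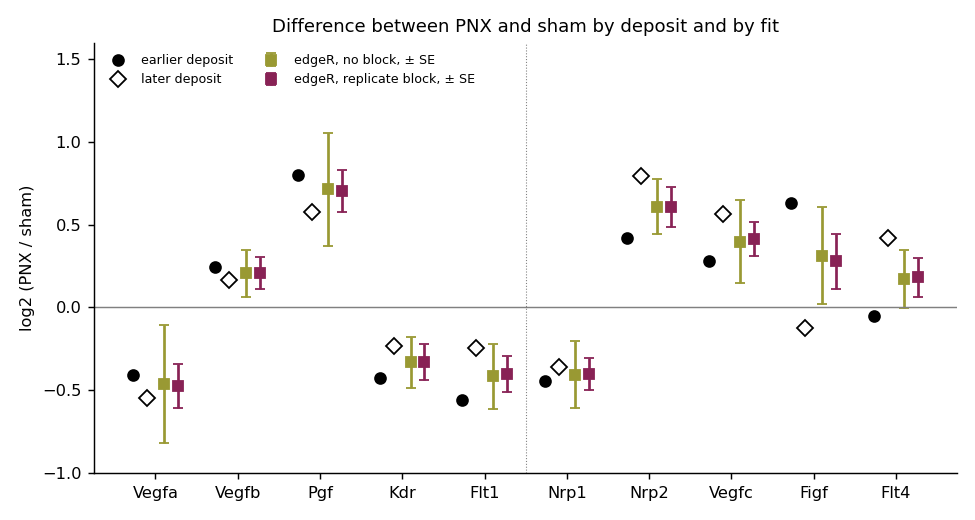
Log2 ratio of PNX to sham for the 5 members (left of the dotted line) and 5 related genes, within the earlier deposit (filled circles), within the later deposit (open diamonds) and as fitted by edgeR without and with the replicate block (squares, bars are ± SE). Vegfa, Kdr, Flt1 and Nrp1 lie below 0 in both deposits, Vegfb, Pgf, Nrp2 and Vegfc above 0, and Figf and Flt4 change sign between deposits.

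Kdr, the main signalling receptor, was lower in every PNX library. Its level was 803, 808 and 750 CPM in the sham libraries and 609, 613 and 625 in the PNX libraries (replicates 1, 2 and 3 in this order, here and below). The 3 PNX libraries lay close together and the groups did not overlap, as for 17.9% of genes with all PNX libraries below all sham libraries. Over the 2 samples per group the mean was 780 ± 51.7 CPM (SD, n = 2) in sham and 620 ± 17.2 in PNX, 1.26-fold lower. The log2 fold change was −0.33 (SE 0.15), with an adjusted p of 0.488 without the block and 0.0694 with it in edgeR's quasi-likelihood test. With the 6 libraries as separate replicates, a fit that counts the near-identical replicates 1 and 2 as independent, the adjusted p was 0.0239, and 13.2% of genes were under 0.05.

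Flt1, the high-affinity receptor that VEGFA shares with VEGFB and PlGF, was lower in every PNX library too. It stood at 393, 396 and 298 CPM in sham and at 274, 272 and 246 in PNX. Sham replicate 3 came closest to the PNX libraries, but the groups did not overlap, as for 17.9% of genes in this direction. The means were 347 ± 73.7 CPM (SD, n = 2) in sham and 260 ± 16.1 in PNX. The log2 fold change was −0.42 (SE 0.20, adjusted p = 0.498 in edgeR) without the block, and with the replicate block Flt1 fell by 0.40 on the log2 scale (SE 0.11, adjusted p = 0.0361). The difference was −0.56 within the earlier deposit and −0.25 within the later one.

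The log2 ratio of Flt1 to Kdr counts was −1.03 and −1.33 in the sham samples of the earlier and later deposit and −1.16 and −1.35 in the PNX samples. PNX minus sham was −0.13 within the earlier deposit and −0.01 within the later one. The mean difference of −0.07 had p = 0.667 in a two-sided exact permutation test, which cannot go below 0.333 with 2 samples against 2 and so could not have shown a difference. The later deposit was lower than the earlier one in both groups.

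Both receptors were also set against EC content as the summed CPM of 10 endothelial genes (Pecam1, Cdh5, Tek, Tie1, Erg, Cldn5, Emcn, Esam, Robo4 and Egfl7). This sum ranged from 8147 to 10206 CPM in sham and from 7517 to 8622 in PNX, and the median log2 fold change over the list was −0.16. With the block 1 of 10 genes (Tek, lower) had an adjusted p under 0.05, against 10.1% of all genes lower. Flt1 amounted to 0.0388, 0.0388 and 0.0366 of the endothelial sum in sham and 0.0319, 0.0316 and 0.0328 in PNX. These values did not overlap, but the share of all genes without overlap on this measure was not counted. Kdr amounted to 0.0793, 0.0792 and 0.0920 in sham and 0.0711, 0.0711 and 0.0832 in PNX, so the groups overlapped although the ratio was lower within each deposit. Capillary markers moved in the same direction. Of 8 general capillary genes, 7 were lower at an adjusted p under 0.05 with the block, against the same 10.1%. Their median log2 fold change was −0.67 without the block, with a summed level of 3688 to 4756 CPM in sham and 2887 to 3274 in PNX. Of 8 aerocyte capillary genes, 5 were lower with the block and Car4 and Prx had values above 0 (log2 fold change 0.34 and 0.22, adjusted p = 0.0527 and 0.208 in edgeR), with a median of −0.46 and a summed level of 2705 to 3681 CPM in sham and 2192 to 3012 in PNX. No gene of these lists was at 0 in every library, and their part in the receptor values was not tested.

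Vegfa was lower after PNX within each deposit, and differed more between deposits (log2 difference −0.60 in sham and −0.74 in PNX, later over earlier) than between groups. Its summed level was 4166, 4288 and 2839 CPM in sham and 3214, 3271 and 1909 in PNX. Replicate 3 was the lowest library of each group, and sham replicate 3 lay below PNX replicates 1 and 2, so the groups overlapped. The means were 3546 ± 1035 CPM (SD, n = 2) and 2576 ± 916. Without the block the log2 fold change was −0.46 (SE 0.36, adjusted p = 0.696 in edgeR), and with the replicate block Vegfa fell by 0.48 on the log2 scale (SE 0.13, adjusted p = 0.0422). That adjusted p was 0.0528 when scaled by library size alone, 0.05004 without sham replicate 2 and 0.0525 without PNX replicate 1. PNX was lower than sham by −0.41 within the earlier deposit and by −0.55 within the later one. Leaving out PNX replicate 3 moved the value without block to −0.14, and leaving out sham replicate 3 moved it to −0.72. The longest transcript alone, in which a read counts once, had 40748, 37488 and 11541 counts in sham and 29072, 26191 and 6908 in PNX.

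Both the alveolar type 1 and the endothelial markers followed the same order of the 6 libraries as Vegfa, with replicates 1 and 2 of a group close together. The share of all genes with this order was not counted. The summed level of 8 genes (Ager, Aqp5, Hopx, Rtkn2, Pdpn, Cldn18, Akap5 and Clic5) was 5972, 6047 and 2596 CPM in sham and 4452, 4482 and 1236 in PNX, so that sham replicate 3 again lay below PNX replicates 1 and 2. The endothelial sum was 10123, 10206 and 8147 CPM in sham and 8575, 8622 and 7517 in PNX, with sham replicate 3 in the same place, as it was in the aerocyte capillary sum (2705 CPM against 2987 and 3012). The median log2 fold change of the type 1 list was −0.71 without the block. With the block 6 of its genes were lower and 1 (Pdpn) higher at an adjusted p under 0.05, against 10.1% and 11.5% of all genes. The type 2 list, led by Sftpc, was 5496, 5516 and 6023 CPM in sham and 3615, 3584 and 2132 in PNX, with 8 of 8 genes lower with the block, but it did not share the low value in sham replicate 3. The part of these cell types in the Vegfa values was not tested.

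**Figure D3:**
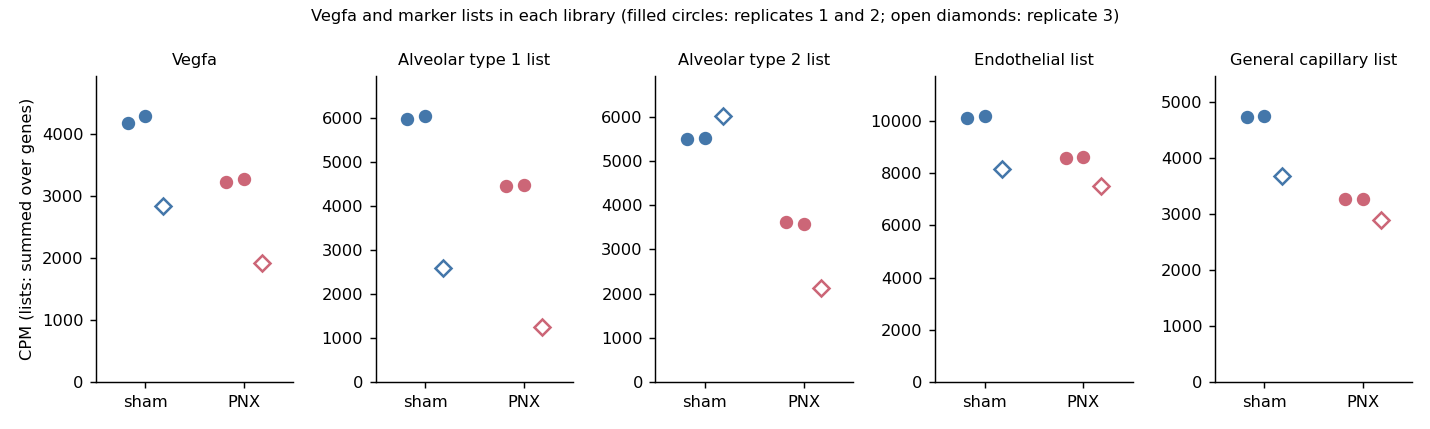
CPM of Vegfa and summed CPM of 4 marker lists in each library (axes start at 0), with filled circles for replicates 1 and 2 and open diamonds for replicate 3. Vegfa, the alveolar type 1 list and the endothelial list share the order of all 6 libraries, with replicate 3 lowest in each group and sham replicate 3 (2839, 2596 and 8147 CPM) below PNX replicates 1 and 2. Replicates 1 and 2 of a group lie close together, and the share of all genes with this order was not counted.

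The exon 6 and exon 7 sequences given above were used to look at Vegfa isoforms as far as transcript counts allow. The VEGF188 transcript had 151, 141 and 48 counts more than the VEGF164 transcript in sham and 107, 97 and 48 more in PNX. These transcripts differ by exon 6, but which reads make up the extra counts is not known. The extra counts were 0.371%, 0.376% and 0.416% of the VEGF188 counts in sham and 0.368%, 0.370% and 0.695% in PNX. PNX replicate 3 stood apart from replicates 1 and 2 of both groups, with an exact 95% interval of 0.513% to 0.920%, which overlapped that of sham replicate 3 (0.307% to 0.551%). The VEGF164 and VEGF120 transcripts differ by exon 7. The extra counts of VEGF164 made up 1.71%, 1.86% and 1.76% of its counts in sham and 1.87%, 1.92% and 1.90% in PNX. The exons span 2.04% and 3.82% of those transcripts. How reads were trimmed, and how reads that cross a junction were counted, is not given, so these differences give no share of an isoform. Intervals cover counting error only.

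Vegfb, a ligand of VEGFR1 with roles in fatty acid uptake and in the survival of vessels, was slightly higher in every PNX library. It stood at 14.1, 14.7 and 15.2 CPM in sham and at 17.2, 17.6 and 16.8 in PNX, and the groups did not overlap, as for 18.8% of genes with all PNX libraries above all sham libraries. Vegfb was the steadiest member across deposits, with means of 14.8 ± 0.366 CPM (SD, n = 2) in sham and 17.1 ± 0.232 in PNX. The log2 fold change of 0.21 (SE 0.14) had an adjusted p of 0.663 without the block and 0.182 with it in edgeR. It rested on 570, 527 and 257 counts of the longer transcript in sham and 638, 577 and 250 in PNX. This transcript carries 101 bases that the shorter one lacks. It had 1 count more than the shorter one in each sham library and in PNX replicate 2. The difference was 0 of 638 and 0 of 250 counts in PNX replicates 1 and 3 (limits of 0.470% and 1.20% of counts). The bases span 7.88% of the transcript. How reads that cross a junction were counted is not given, so this difference gives no share of either transcript.

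Pgf, an angiogenic ligand of VEGFR1 with low expression in most healthy adult tissue, was higher after PNX in both deposits. Its level was 8.21, 9.22 and 6.15 CPM in sham and 14.9, 16.0 and 8.99 in PNX. Replicate 3 was again the lowest in each group, and PNX replicate 3 lay just below sham replicate 2, so the libraries overlapped although each deposit on its own had PNX above sham. The means were 7.45 ± 1.92 CPM (SD, n = 2) in sham and 12.2 ± 4.43 in PNX. Without the block the log2 fold change was 0.71 (SE 0.34, adjusted p = 0.500 in edgeR). With the replicate block Pgf rose 1.63-fold (log2 fold change 0.70, SE 0.12, adjusted p = 0.00811), short of the fold the call rule asks for. Leaving out PNX replicate 3 moved the log2 fold change without block to 1.04, and leaving out sham replicate 3 moved it to 0.50. The transcript counts were low, at 356, 363 and 113 in sham and 608, 566 and 146 in PNX for the longer transcript. Its counts beyond those of the shorter one, which has 333 bases fewer, made up 14.0% to 17.9% of its counts over the 6 libraries. The exact 95% intervals all overlapped.

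The fibroblast, mesothelial, cell division, macrophage, and pericyte and smooth muscle lists each had genes called higher with the block. Over all genes 3.89% were called higher. The fibroblast list had 5 of 8 genes called higher with the block (Col1a1, Col1a2, Col3a1, Dcn and Lum), while Pdgfra was lower (log2 fold change −0.49, adjusted p = 0.0326 in edgeR with the block), at 399, 390 and 323 CPM in sham and 338, 335 and 192 in PNX. The list's summed level was 1084 to 1288 CPM in sham and 3426 to 4889 in PNX. The mesothelial list had 4 of 6 called higher, with 158 to 382 CPM in sham and 316 to 814 in PNX, and the cell division list 10 of 10, with 73.8 to 135 CPM in sham and 662 to 982 in PNX. The macrophage list had 3 of 9 called higher (Marco, C1qa and C1qb), with 2406 to 4490 CPM in sham and 3207 to 4321 in PNX. The pericyte and smooth muscle list had 1 of 9 (Rgs5), with 427 to 569 CPM in sham and 405 to 557 in PNX. In its sum replicate 3 was the highest sham library and the lowest PNX library. In the sums of the other lists replicate 3 was the highest library of its group. In Pgf and in Pdgfra replicate 3 was the lowest of each group. The part of these lists in the Pgf value was not tested.

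**Figure D4:**
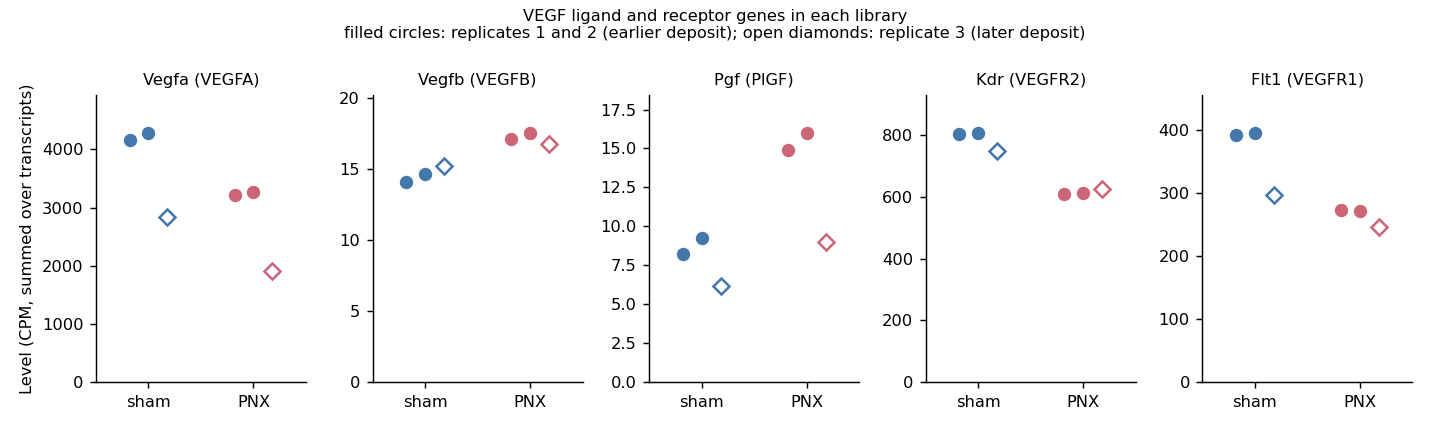
CPM of each member in each library (axes start at 0, a scale for each gene), with filled circles for replicates 1 and 2 and open diamonds for replicate 3. Kdr and Flt1 are lower and Vegfb is higher in all 3 PNX libraries than in any sham library, while Vegfa and Pgf overlap because replicate 3 is low in both groups.

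Nrp1, the co-receptor that binds VEGF164 and VEGFR2, was lower after PNX, as the receptors were. It stood at 638, 636 and 509 CPM in sham and 475, 479 and 388 in PNX. All PNX libraries lay below all sham libraries, as for 17.9% of genes. The log2 fold change was −0.41 (SE 0.20, adjusted p = 0.518 in edgeR) without the block and −0.40 (SE 0.10, adjusted p = 0.0272) with it. Nrp2, the co-receptor better known for lymphatic vessels and veins, moved the other way. It stood at 390, 396 and 360 CPM in sham and 532, 541 and 612 in PNX. All PNX libraries lay above all sham libraries, as for 18.8% of genes. Nrp2 rose 1.52-fold with the replicate block (log2 fold change 0.61, SE 0.12, adjusted p = 0.0120 in edgeR), against an adjusted p of 0.246 without it.

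Of the lymphatic VEGF axis, Vegfc, which encodes a VEGFR3 ligand, stood at 30.9, 31.1 and 21.0 CPM in sham and 37.9, 38.7 and 30.5 in PNX, with a log2 fold change of 0.41 (SE 0.10, adjusted p = 0.0278 in edgeR) with the replicate block and an adjusted p of 0.620 without it. Figf, the gene of the related ligand VEGFD, was higher after PNX in the earlier deposit (log2 difference 0.63) and lower in the later one (−0.13). Flt4, the gene of VEGFR3, differed by −0.05 and 0.42 in the 2 deposits. Neither passed an adjusted p of 0.05 in any of the 3 edgeR fits given here.

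The wider VEGF pathway was read as 9 lists, counting that of the members. The counts here leave the members out, and 122 of 123 genes of the other lists were tested. With the replicate block 10 were called, 7 higher and 3 lower, against 5.12% of all genes. Without the block 0 were called, and with the 6 libraries as separate replicates 6 were, 4 higher and 2 lower, against 2.51% of all genes. At an adjusted p under 0.05 with any fold, the block passed 24 higher and 21 lower, against 11.5% and 10.1% of all genes.

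**Figure D5:**
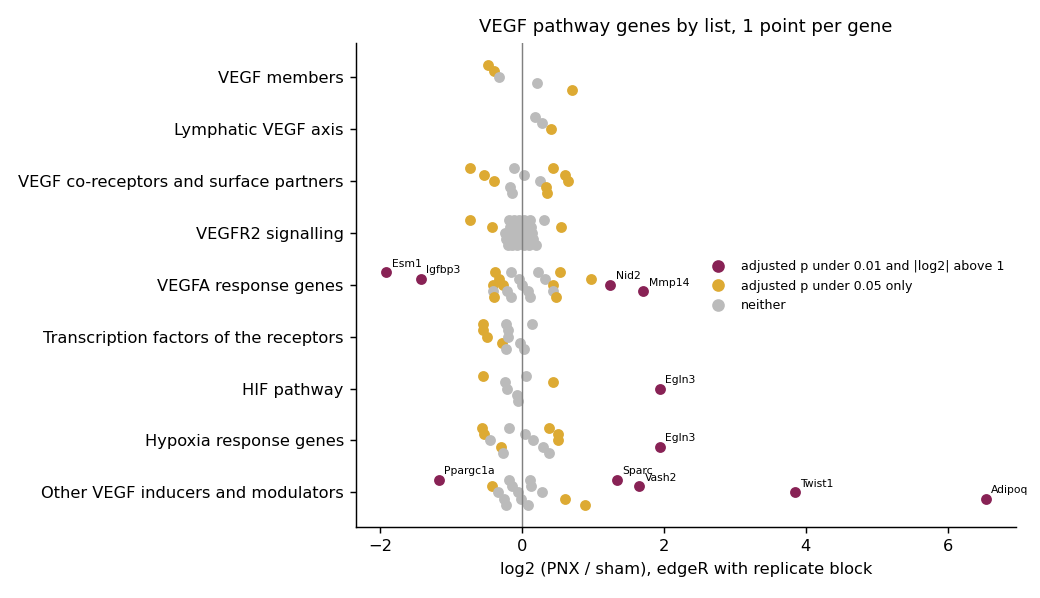
Log2 fold change (PNX over sham, edgeR with replicate block) of each tested gene in 9 lists of the VEGF pathway, with 1 point per gene and list, coloured by the test passed and with called genes named. Most of the 32 genes of VEGFR2 signalling lie near 0, while called genes fall in the lists of VEGFA response genes, hypoxia and other modulators; Adipoq had 0 to 1 counts per sham library, so its position depends on the prior count.

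Of 32 genes that carry the VEGFR2 signal inside the cell, 0 were called with the block. At an adjusted p under 0.05, 1 (Nos3) was higher and 2 (Sphk1 and Sh2d2a) were lower, against 11.5% higher and 10.1% lower over all genes. The median log2 fold change over the list was −0.05 without the block. The most abundant, Iqgap1, a scaffold that binds VEGFR2, ranged from 428 to 580 CPM in sham and 437 to 582 in PNX (adjusted p = 0.917 in edgeR with the block). Of 13 co-receptors and surface partners, 0 were called, 5 passed higher and 3 lower. The most abundant was Cdh5 (VE-cadherin), which had a log2 fold change of −0.15 (SE 0.12, adjusted p = 0.412 in edgeR with the block).

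Genes known to respond to VEGFA in ECs were divided. Which cells of these bulk samples held their RNA was not tested. Of 24 tested, the block called 2 lower and 2 higher, and passed 7 lower and 6 higher at an adjusted p under 0.05. Over all genes 1.23% were called lower and 3.89% higher, and 10.1% and 11.5% passed. Esm1 (endocan), a marker of tip cells, stood at 18.8, 17.9 and 15.7 CPM in sham and 4.28, 4.06 and 5.10 in PNX, and fell 3.77-fold with the block (adjusted p = 0.000281). Igfbp3, which binds insulin-like growth factors, stood at 82.1, 82.3 and 62.5 CPM in sham and 25.3, 24.8 and 28.7 in PNX, and was 2.70-fold lower (adjusted p = 0.000835). Mmp14, a membrane-bound matrix metalloproteinase, stood at 43.9, 43.9 and 48.6 CPM in sham and 135, 136 and 169 in PNX, and rose 3.27-fold (adjusted p = 3.7e-05). Nid2, a basement membrane protein, rose 2.36-fold (adjusted p = 0.000937), from a mean of 14.9 to 36.4 CPM. In these 4 genes the libraries did not overlap, as for 17.9% of genes with PNX below sham and 18.8% with PNX above. The 4 genes were named because the block called them from these same libraries, so the lack of overlap is no separate support. Their lowest adjusted p without the block was 0.0738 in edgeR's test. Egr1, the most abundant of the list, did not pass (log2 fold change −0.16, SE 0.10, adjusted p = 0.322 with the block).

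Transcription factors known to act on the receptor genes were mostly lower, 9 of 11 tested. None was called. With the block 4 passed lower at an adjusted p under 0.05 (Epas1, Gata2, Klf2 and Sox7) and 0 higher, against 10.1% and 11.5% of all genes. The median log2 fold change over the list was −0.24 without the block. Epas1 (HIF-2α), the most abundant, stood at 3559, 3579 and 2980 CPM in sham and 2327, 2383 and 2107 in PNX, with a log2 fold change of −0.55 (SE 0.13, adjusted p = 0.0250 in edgeR with the block and 0.382 without). Etv2, an ETS factor of the embryo, had 0 counts in all 6 libraries.

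The HIF pathway and hypoxia genes did not share a direction. Of 8 HIF pathway genes the block passed 2 higher (Hif1a and Egln3) and 1 lower (Epas1) at an adjusted p under 0.05. Of 14 hypoxia response genes 4 passed higher and 3 lower, against 11.5% and 10.1% of all genes. Egln3, an oxygen-sensing prolyl hydroxylase that stands in both lists, was the one called, with 1.24, 1.51 and 3.33 CPM in sham and 6.04, 6.19 and 10.7 in PNX, a 3.84-fold rise (adjusted p = 0.000407 in edgeR with the block). Ldha, the most abundant hypoxia response gene, stood at 366 to 399 CPM in sham and 539 to 553 in PNX (log2 fold change 0.51, SE 0.10, adjusted p = 0.0103 with the block).

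Of 19 other inducers and modulators of VEGF signalling, the block called 4 higher and 1 lower, against 3.89% and 1.23% of all genes. Sparc, a matrix protein that binds VEGFA and the most abundant of the list, stood at 1475, 1497 and 969 CPM in sham and 3167, 3257 and 2869 in PNX, and rose 2.53-fold (adjusted p = 0.00155 in edgeR with the block). Vash2, a relative of the vasohibin-1 gene, rose 3.15-fold (adjusted p = 0.00236) from a mean of 1.05 to 3.22 CPM. The other genes called higher were scarce. Twist1, a transcription factor that acts on VEGFR2 expression, had 7, 2 and 1 counts in sham and 49, 54 and 27 in PNX. Adipoq (adiponectin) had 1, 1 and 0 counts in sham and 83, 93 and 17 in PNX. Ppargc1a (PGC1α), a coactivator that can induce Vegfa, was the gene called lower, with a mean of 4.98 CPM in sham and 2.20 in PNX (2.26-fold lower, adjusted p = 0.00371).

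Over the 6 libraries, no member had another member among its 3 nearest genes. Likeness was the root mean square difference of centred log2 CPM, taken over 9861 genes with a mean of at least 10 CPM, and all genes share libraries and deposits. Nearest to Vegfa were Cdkn2b (0.03), Neat1 (0.05) and Aktip (0.05), and nearest to Flt1 were Ppap2a (0.02), Map4k2 (0.03) and Fam13c (0.03). Kdr lay nearest to Brwd1 (0.02), Mapk8ip3 (0.02) and Zbtb44 (0.02), and Vegfb to Anxa6 (0.02), Eif4e2 (0.02) and Rpl15 (0.02). Pgf had more distant neighbours, Dpt (0.07), Pdia6 (0.10) and Nrep (0.11). Between members, Kdr and Flt1 were closest to each other (0.13), with Kdr ranked 470th among the neighbours of Flt1, and Pgf and Flt1 were the farthest apart (0.63).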

How the data were processed

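RNA of lung ECs was sequenced from 3 sham and 3 PNX libraries. Per the labels and methods, TruSeq stranded mRNA libraries were read as pairs, and the submitters' processing notes name STAR and mm10. The authors counted reads on the Basepair platform. The rule for reads that overlap several features, like the annotation release, is not given in the sources used here. For each library the authors deposited, per RefSeq transcript, a whole-number count, an FPKM and a TPM. From the deposited FPKM only transcript lengths were derived, and the deposited TPM gave levels per length. The counts were summed per symbol and tested over all genes.

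PNX was compared with sham in edgeR 4.0.16, run in R 4.3.3 (TMM, filterByExpr, glmQLFit, glmQLFTest, Benjamini-Hochberg) on 4 samples without block. DESeq2 1.42.0, limma 3.58.1 (voom), other scalings and filters, the replicate block, the 6 libraries as separate replicates, a single transcript per symbol and left-out libraries were alternatives. The SE is the log2 fold change divided by the square root of F. Mean ± SD is over 2 samples per group. The methods count each library as its own pool of 2 mice, yet replicates 1 and 2 differed by little more than counting error. Whether these replicates came from separate animals was not resolved. The p-values measure the spread between these samples, which may be technical. The pairing comes from the labels, which mark replicates 1 and 2 of both groups as from an earlier deposit. Over 13913 genes with a mean of at least 100 counts, the earlier-to-later difference in sham tracked that in PNX, with a Pearson r of 0.734 and a Spearman rho of 0.745 (across genes, so with no independent replicates).

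The members and lists were chosen with earlier results of these data known. Named were the members, Nrp1, Nrp2, Flt4, Vegfc and Figf, and of each other list the gene with the highest mean and up to 4 called genes of largest fold change with the block. Other genes, named beside counts of 5 or fewer, were chosen after their values were seen. Exact intervals are 95% Clopper-Pearson intervals. The limit for a count of 0 is 3 counts of the total. Depth was 29526989 to 81282871 counts per library, in which shared exons count more than once. Promoters are from RefSeq, exons and positions from GENCODE vM21, and all 5 members matched both.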

Additional observations from a re-analysis of the deposited data

How the results depend on the processing

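The 5 members kept their direction and stayed short of the call rule under all 36 fits. At an adjusted p under 0.05 with any fold, the replicate block in edgeR passed Vegfa at −0.48, Pgf at 0.70 and Flt1 at −0.40, and other fits passed other members. Over the 36 fits the log2 fold change ran from −0.88 to −0.14 for Vegfa, 0.17 to 0.25 for Vegfb, 0.28 to 1.04 for Pgf, −0.39 to −0.28 for Kdr and −0.61 to −0.20 for Flt1. The adjusted p was under 0.05 in 8 fits for Vegfa, 2 for Vegfb, 13 for Pgf, 6 for Kdr and 13 for Flt1. The Flt1 to Kdr difference turned to 0.0189 without PNX replicate 3, and ran from −0.223 to 0.0189 when 1 library was left out. The number of genes called differed between treatments of deposit and replicates and between tools. Against 0 without block, it was 849 with the replicate block (10 of the VEGF pathway), 1104 with the block over the 6 libraries (10), 409 with the 6 libraries as separate replicates (6), 587 with DESeq2 (9), 815 with DESeq2 and the replicate block (10), and 927 with DESeq2 on the 6 libraries (10). The replicate block with DESeq2 size factors gave 624 (10; 540 higher and 84 lower), with upper-quartile scaling 646 (10; 548 and 98), with library size alone 629 (10; 550 and 79) and with the transcript of highest total, chosen after seeing the data, 727 (9). At an adjusted p under 0.05 with any fold the replicate block passed 3584 genes (45). Leaving out libraries, including settings chosen after seeing the data, gave 0 to 2 genes (2 without PNX replicate 3) and 0 pathway genes with no block. With the 6 libraries as separate replicates it gave 0 to 517, namely 517 without sham replicate 3 (7 of the pathway), 49 and 332 without PNX replicate 2 or 3 (1 and 5) and 0 without the others. With the replicate block it gave 671 and 668 without sham replicate 1 or 2 (10 each), 485 without PNX replicate 1 (8) and 863 without PNX replicate 2 (10). The cause of these differences was not tested. Vegfb and Pgf rest on 113 to 638 counts per transcript and library, which limits their precision.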
